A study of Mus musculus with 6 samples.

Results

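The IGF ligands and IGF-binding proteins are the genes Igf1, Igf2, Igfbp2, Igfbp3, Igfbp4, Igfbp5, Igfbp6 and Igfbp7, taken by symbol from a table of raw read counts for isolated mouse pancreatic islets. All 8 were found among 24421 listed genes. The series holds 3 libraries labelled as a β cell-specific knockout (genotype C57.DhpsloxP.MIP1-CreERT, called KO here) and 3 labelled control, all from C57BL/6J mice. The gene Dhps codes for deoxyhypusine synthase, and the knockout label joins a loxP-flanked Dhps allele with an inducible Cre recombinase under the mouse insulin promoter, which is active in β cells. The labels do not give age, sex, tamoxifen dosing, whether the controls carried Cre, or what the prefix HF in the sample names stands for. Nor do they say whether each library is a separate mouse, so the p-values reflect just the spread among these 6 libraries, which may be technical.

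The insulin-like growth factors IGF1 and IGF2 are secreted peptides that act mainly through the IGF1 receptor and favour growth and survival of cells. Outside cells they are mostly held by IGF-binding proteins, which prolong their life and limit their access to the receptor until proteases cut the binder. In pancreas several of these genes are known from fibroblasts, pericytes, vascular cells and macrophages, while mature β cells read IGF signals through receptors and adaptor proteins. Igfbp7 encodes a more distant family member that binds IGFs weakly and is abundant in blood vessels.

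Libraries held 21027737 to 23249895 counts assigned to genes. Of 13736 genes that passed the expression filter, 568 rose and 361 fell in KO-labelled islets (edgeR quasi-likelihood F test, p-values adjusted by Benjamini-Hochberg over all tested genes). That total of 929 was 60 without KO replicate 1, 348 without KO replicate 3, 113 without control replicate 2 and 234 without control replicate 3. Dhps itself was not called, at 12 ± 0.689 CPM in KO-labelled and 12.6 ± 0.704 CPM in control islets (SD, n = 3 each; CPM is the count scaled to library size with TMM factors, adjusted p = 0.742). Its exons overlap Wdr83, and the count sums all 9 exons over all cells of the islet. It therefore does not show whether the allele was recombined in β cells, and the genotype is given throughout as a label. Insulin and the other β cell markers filled a summed 392000 to 446000 CPM in KO-labelled and 365000 to 493000 CPM in control islets, so the markers of the labelled tissue were present in all 6 libraries.

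Igf1 and Igfbp4 rose in KO-labelled islets and no member fell. Of the 8 members, 7 passed the expression filter, 2 rose and 5 were not called, beside a background of 6.76% of all tested genes called in either direction, 4.14% that rose and 2.63% that fell. The median log2 fold change over the 7 was 0.42, beside 0.01 over all tested genes. With 7 genes these figures describe the members and do not set them apart. Sequence upstream of the 2 genes that rose is shown with that of Igfbp7, the most abundant member, which was not called, so that the genes behind the contrast can be seen. The windows cover the 250 bases before the RefSeq start (GRCm38.p6), read 5′ to 3′ on the gene's strand, and capitals mark TATAAA or GGGCGG on either strand.
Igf1 upstream window, chr10:87860861-87861110, plus strand: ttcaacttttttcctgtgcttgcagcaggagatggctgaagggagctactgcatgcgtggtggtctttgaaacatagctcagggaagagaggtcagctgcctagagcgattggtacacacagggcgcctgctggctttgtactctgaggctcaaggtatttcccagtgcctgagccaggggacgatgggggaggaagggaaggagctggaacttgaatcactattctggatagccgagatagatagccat
Igfbp4 upstream window, chr11:99040994-99041243, plus strand: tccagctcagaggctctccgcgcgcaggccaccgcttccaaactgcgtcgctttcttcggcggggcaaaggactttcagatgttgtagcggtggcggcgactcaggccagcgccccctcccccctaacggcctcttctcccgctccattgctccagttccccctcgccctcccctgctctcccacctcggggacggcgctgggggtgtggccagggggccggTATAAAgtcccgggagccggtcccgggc
Igfbp7 upstream window, chr5:77408046-77408295, minus strand: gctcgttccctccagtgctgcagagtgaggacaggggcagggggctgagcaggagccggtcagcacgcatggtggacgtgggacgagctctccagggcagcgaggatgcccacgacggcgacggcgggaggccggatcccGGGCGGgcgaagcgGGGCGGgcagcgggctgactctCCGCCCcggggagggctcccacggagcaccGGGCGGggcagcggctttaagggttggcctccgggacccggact
The Igf1 window holds neither motif and 5 CG pairs, the Igfbp4 window holds TATAAA once and 22 CG pairs, and the Igfbp7 window holds GGGCGG 4 times and 26 CG pairs. Over all 32851 RefSeq windows of this length, 12.4% hold TATAAA, 32.7% hold GGGCGG, and the median is 6 CG pairs. The pair that rose therefore shared neither motif in these windows. RefSeq windows were found for all 8 members, and that of Igf1 lies inside the span of the gene in the deposited table, whose first exon starts further upstream.

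**Figure D1:**
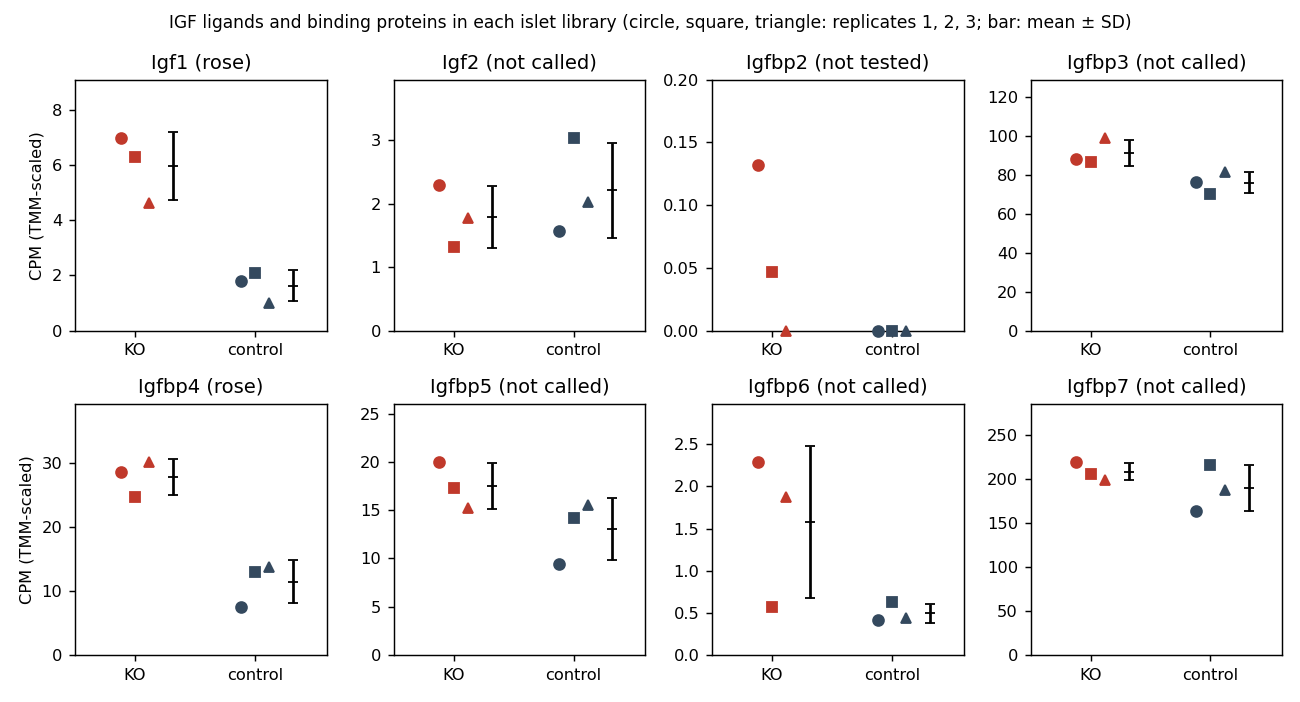
Each panel gives the CPM of a member in every library (vertical axis from 0, its own scale), with KO-labelled islets left and controls right, and a bar for mean ± SD of 3 libraries except for Igfbp2. Igf1 lies between 4.62 and 7 CPM in KO-labelled islets, against 0.989 to 2.08 CPM in controls, and Igfbp4 between 24.7 and 30.1 CPM, against 7.5 to 13.7 CPM.

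Among the ligands, Igf1 rose and Igf2 was not called. Igf1 (chromosome 10, 87859056 to 87937047, plus strand, mm10, 6 exons) had 159, 134 and 91 counts in KO-labelled islets, against 39, 50 and 25 counts in controls. Every KO-labelled library lay above every control, and the lowest KO-labelled value (4.62 CPM) was above the highest control value (2.08 CPM). Its mean was 5.97 ± 1.22 CPM in KO-labelled and 1.63 ± 0.569 CPM in control islets (SD, n = 3 each). On the log2 scale the difference was 1.88 ± 0.31 (SE, 95% interval 1.19 to 2.57, adjusted p = 0.0161 in edgeR), a 3.68-fold difference, and 1.75% of tested genes had a larger one. An exact two-sided permutation test on the 6 libraries gave p = 0.1, the smallest value that 3 against 3 allow. Without KO replicate 1 the change was 1.75 and no longer passed (adjusted p = 0.0668).

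Igf2, the fetal growth factor expressed from the paternal allele, lies on chromosome 7 (142650768 to 142661035, minus strand, 6 exons). It had 52, 28 and 35 counts in KO-labelled islets and 34, 73 and 51 counts in controls, so the groups overlapped. The log2 fold change was -0.30 ± 0.36 (95% interval -1.11 to 0.51, adjusted p = 0.639), an interval that covers changes of either sign. Its exons overlap the antisense gene Igf2os, which averaged 0.833 counts a library. Ins2, an insulin gene, lies on the same chromosome from 142678656 to 142679708 and held 5774688 to 6598837 counts in KO-labelled and 6652932 to 7679613 counts in control islets.

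Per length, Igf1 stood above Igf2 in every KO-labelled library and below it in every control. By counts, control replicate 1 held more Igf1 (39) than Igf2 (34). Its order per length thus rests on the exon lengths, 7817 bp for Igf1 and 4236 bp for Igf2, and on low counts. The ratio of Igf1 to Igf2 in RPKM (CPM per kilobase of exon) was 1.66, 2.59 and 1.41 in KO-labelled islets, against 0.622, 0.371 and 0.266 in controls. Both ligands together summed to 1.44, 1.12 and 1.01 RPKM in KO-labelled islets and 0.602, 0.985 and 0.603 RPKM in controls. These ratios and sums are descriptions of the libraries and were given no test.

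Among the binding proteins, Igfbp4 rose. Igfbp4, a binder of both ligands that restrains IGF action until it is cut by the protease PAPP-A, lies on chromosome 11 (99041260 to 99052643, plus strand, 4 exons). It had 650, 525 and 592 counts in KO-labelled islets, against 162, 310 and 346 counts in controls. The groups did not overlap, with 24.7 CPM as the lowest KO-labelled and 13.7 CPM as the highest control value. Means were 27.8 ± 2.79 CPM in KO-labelled and 11.4 ± 3.37 CPM in control islets (SD, n = 3 each). On the log2 scale the difference was 1.28 ± 0.20 (95% interval 0.84 to 1.73, adjusted p = 0.0131), a 2.44-fold difference. Without KO replicate 1 the change was 1.26 with an adjusted p of 0.0518. Its share of the summed counts of the 6 binding proteins was 8%, 7.39% and 8.70% in KO-labelled islets, against 2.92%, 4.12% and 4.59% in controls.

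Igfbp6, a binder with a preference for IGF2, had the second highest fold change of the members but did not pass the test. It lies on chromosome 15 (102144186 to 102149512, plus strand, 4 exons) and had 52, 12 and 37 counts in KO-labelled islets, against 9, 15 and 11 counts in controls. KO replicate 2 fell inside the control range at 0.564 CPM, while KO replicates 1 and 3 stood at 2.29 and 1.88 CPM. The log2 fold change was 1.67 ± 0.54 (95% interval 0.46 to 2.88, adjusted p = 0.0884). Without KO replicate 2 it was 2.06 and passed (adjusted p = 0.0347).

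Igfbp3, the main carrier of IGFs in serum, had the smallest standard error of the 7 tested members. It lies on chromosome 11 (7206091 to 7213923, minus strand, 5 exons) and had 2002, 1845 and 1952 counts in KO-labelled islets, against 1650, 1688 and 2056 counts in controls. After scaling, the lowest KO-labelled value (86.7 CPM) was above the highest control value (81.3 CPM). The difference was small and not called, at 0.26 ± 0.10 on the log2 scale (95% interval 0.04 to 0.49, adjusted p = 0.126). Groups without overlap were found for 32.1% of all tested genes, and for 3 of the 7 tested members, Igf1, Igfbp3 and Igfbp4.

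Igfbp5, a binder that attaches to extracellular matrix, lies beside Igfbp2 on chromosome 1 (72858065 to 72874865, minus strand, 4 exons). It had 455, 369 and 300 counts in KO-labelled islets, against 204, 341 and 393 counts in controls. The groups overlapped because KO replicate 3 (15.2 CPM) lay under control replicate 3 (15.5 CPM). The log2 fold change was 0.42 ± 0.19 (95% interval 0.01 to 0.84, adjusted p = 0.181).

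Igfbp7 was the most abundant member and did not separate the groups. It lies on chromosome 5 (77349240 to 77408045, minus strand, 6 exons, with exons that overlap Polr2b) and had 4968, 4354 and 3925 counts in KO-labelled islets, against 3522, 5167 and 4737 counts in controls. Means were 208 ± 9.96 CPM in KO-labelled and 189 ± 26.2 CPM in control islets. The log2 fold change was 0.14 ± 0.12 (95% interval -0.13 to 0.41, adjusted p = 0.503), so a rise as large as that of Igfbp4 lay outside its interval.

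Igfbp2, a binder with an integrin-recognition sequence, was barely seen. It lies on chromosome 1 (72824480 to 72852471, plus strand, 4 exons) and had 3, 1 and 0 counts in KO-labelled islets, against 0 in each control. These counts are at or under the limit of 3 counts that a count of 0 allows (0.119 to 0.152 CPM a library), so no fold is given and a difference was not detectable at this depth. Igfbp1, the remaining classical binder and a liver protein regulated by insulin, had 0 counts in all 6 libraries, with the same limit.

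**Figure D2:**
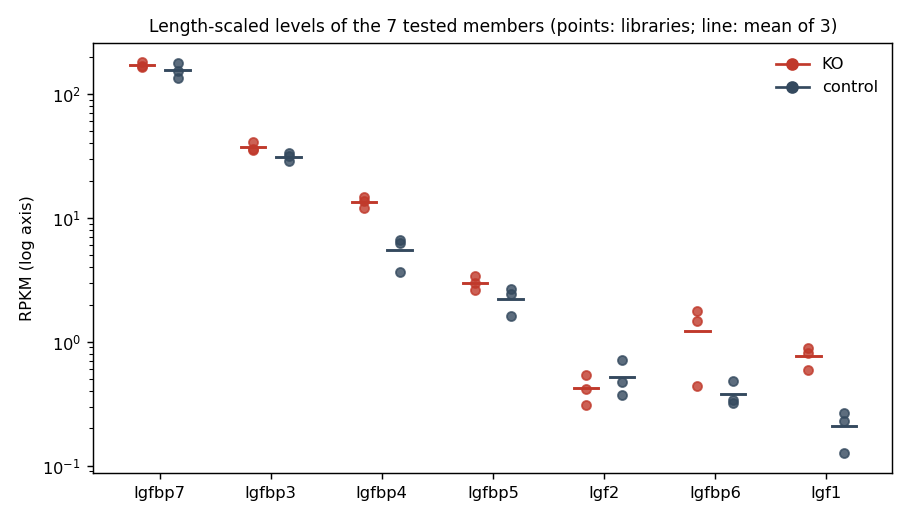
RPKM of the 7 tested members on a log axis, ordered by their control mean, with KO-labelled libraries left and controls right of each name and a line at the mean of 3. Igfbp7 leads in both groups and Igf1 is last of the 7 in controls, at 0.208 RPKM, with 0.764 RPKM in KO-labelled islets.

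The levels of the members spanned a wide range, and the order at the top was the same in both groups. In KO-labelled islets the means per length were 171 ± 8.21 RPKM for Igfbp7, 37.4 ± 2.79 for Igfbp3, 13.4 ± 1.35 for Igfbp4 and 2.99 ± 0.410 for Igfbp5. In controls the same genes stood at 155 ± 21.6, 31.1 ± 2.25, 5.50 ± 1.63 and 2.23 ± 0.548 RPKM, and in neither group did the ranges of neighbours among these 4 overlap. Below them the order in KO-labelled islets was Igfbp6 (1.22 ± 0.699 RPKM), Igf1 (0.764 ± 0.156) and Igf2 (0.423 ± 0.115), where the ranges of Igfbp6 and Igf1 overlapped. In controls it was Igf2 (0.522 ± 0.178 RPKM), Igfbp6 (0.382 ± 0.0895) and Igf1 (0.208 ± 0.0728), where those of Igf2 and Igfbp6 overlapped. Igfbp7 alone made up 73.2% to 76.4% of the summed RPKM of the 8 members in KO-labelled islets and 78.0% to 82.0% in controls.

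Some markers of cells known to express these genes rose in the KO-labelled islets and none of the 4 lists that follow had a member that fell, beside the 4.14% of all tested genes that rose. Of 10 fibroblast and stellate cell markers 5 rose, and their summed level was 312 to 426 CPM in KO-labelled and 75.5 to 303 CPM in control islets. Of 10 macrophage markers 6 rose (286 to 362 CPM in KO-labelled islets, 170 to 175 CPM in controls), of 10 endothelial markers 3 rose (506 to 598 and 359 to 474 CPM, with Kdr at -0.02 and Flt1 at -0.01 on the log2 scale), and of 9 tested pericyte and smooth muscle markers 1 rose (97.6 to 125 and 50.2 to 87.6 CPM). None of these 40 markers was at 0 in all libraries, and the part of these cells in the rise of Igf1 and Igfbp4 was not tested. In bulk islets, more cells of a type and more RNA per cell cannot be told apart.

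The fibroblast markers differed among themselves in control replicate 3, the control with the highest fibroblast sum (303 CPM) and the lowest Igf1 (0.989 CPM). The collagen genes Col1a1, Col1a2, Col3a1 and Col6a3 stood at 76.7, 58.5, 123 and 18.9 CPM in that control, each inside the range of the KO-labelled libraries, and they made up most of the sum. The other 6 markers, Dcn, Lum, Pdgfra, Mgp, Fbln1 and Dpt, lay below every KO-labelled library there, as Igf1 did. Dcn, for example, stood at 34.9 to 49.9 CPM in KO-labelled islets, against 11.8 CPM in that control, and Lum at 10.1 to 12.1 CPM, against 4.07 CPM. Among the controls these markers did not share the order of Igf1. Mgp was lowest in replicate 3, but Lum was highest there, with 1.80 and 2.83 CPM in the other controls. Dcn, Pdgfra, Fbln1 and Dpt were not lowest in replicate 3. In edgeR with the fibroblast sum as a covariate, the log2 fold change was 2.26 for Igf1 (adjusted p = 0.0567) and 0.84 for Igfbp4 (adjusted p = 0.0778). With the acinar sum it was 1.24 for Igf1 (adjusted p = 0.395) and 1.64 for Igfbp4 (adjusted p = 0.148). Neither gene passed in either fit, and both covariates were chosen after the data were seen. Each sum separated the 2 groups without overlap, so with 6 libraries these fits cannot tell the covariate from the group.

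The other marker lists are given by their sums and calls, beside 4.14% of all tested genes that rose and 2.63% that fell. Summed acinar markers stood at 25600, 27800 and 29300 CPM in KO-labelled islets, against 10700, 9480 and 939 CPM in controls, with 0 of 9 tested called. Control replicate 3 stood far below the other controls in this sum and also had the lowest Igf1 of the 6 libraries. Within the KO-labelled islets the order was the reverse, as Igf1 stood at 7, 6.30 and 4.62 CPM while the acinar sum climbed. Control replicate 1 likewise had more acinar signal than control replicate 2 but less Igf1 (1.80 against 2.08 CPM). The part of acinar RNA in the Igf1 difference was not tested, and the covariate fit above cannot decide it. Duct markers reached 363 to 554 and 261 to 316 CPM (1 of 5 rose), Schwann cell markers 14.2 to 16.2 and 9.33 to 11.8 CPM (0 of 6 called), and delta and PP cell markers 17500 to 20400 and 7170 to 14600 CPM (2 of 4 rose). The groups overlapped for lymphocyte markers (7.35 to 70.0 and 9.85 to 17.3 CPM, 1 of 8 rose), alpha cell markers (49500 to 66000 and 36800 to 56900 CPM, 0 of 4 called), β cell markers (3 of 8 fell) and mesothelial markers, of which Msln carried nearly all (30.4 to 77.2 and 55.9 to 156 CPM, not called).

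**Figure D3:**
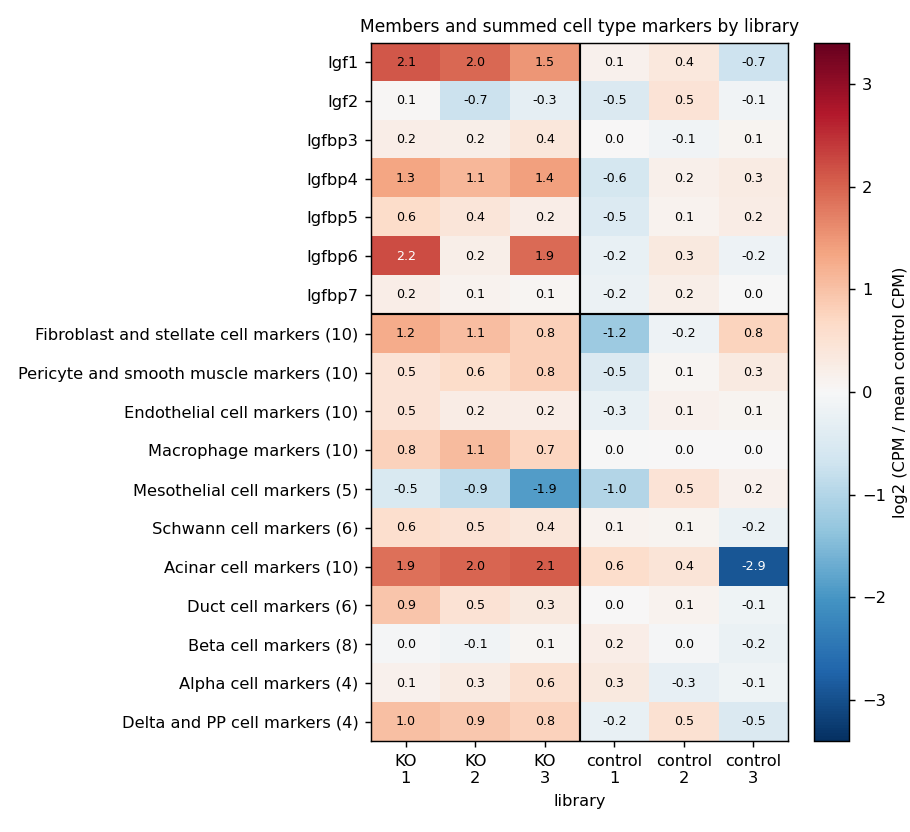
Each cell gives log2 of a library's CPM over the mean control CPM, for the 7 tested members (top) and for summed marker lists (bottom, number of markers in brackets, lymphocytes not drawn), with KO-labelled libraries left of the line. Igf1 runs from 1.51 to 2.11 in KO-labelled islets and -0.71 to 0.36 in controls, while the fibroblast sum runs from 0.80 to 1.25 and -1.25 to 0.76.

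Genes with the profile closest to each member were found by the root mean square (RMS) difference of log2 CPM over the 6 libraries after centring each gene, among 9885 genes. For Igf1 the nearest were the adhesion molecule Vcam1 (0.181) and the heparan sulfate proteoglycan Sdc1 (0.243), where the median gene differed by 1.02. For Igfbp4 they were the efflux transporter Abcg2 (0.153) and the chemokine Cxcl12 (0.184). All 4 of these neighbours rose, which follows from choosing them to match genes that rose. Igfbp5 lay nearest to the pericyte receptor Pdgfrb (0.0512) and to Kitl (0.0641), neither of which was called. The nearest were Col13a1 (0.0822) and Chmp4c (0.133) for Igf2, Mettl23 (0.0264) and Ctps (0.0315) for Igfbp3, and Shmt2 (0.0365) and Anp32b (0.0499) for Igfbp7. Igfbp6 had no close neighbour, with Ptger3 at 0.422 and Comtd1 at 0.438. The median gene differed by 0.749 for Igfbp4, 0.385 for Igfbp5, 0.405 for Igf2, 0.238 for Igfbp3, 0.233 for Igfbp7 and 0.922 for Igfbp6. Distances therefore do not compare between members, as members that vary little lie near most genes. All these distances are descriptions over 6 libraries that share 2 groups.

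On the receiving side, the adaptors Irs1, Irs2 and Shc1 and the receptor Insrr fell, while the receptors Igf1r, Igf2r and Insr were not called. Of 9 tested receptors and adaptors, 4 fell, 0 rose and 5 were not called. Of all tested genes, 2.63% fell and 4.14% rose. The median log2 fold change of the 9 was -0.10, beside 0.01 over all tested genes. Insrr, a receptor of the insulin receptor family that responds to alkaline pH, had 149, 154 and 149 CPM in KO-labelled islets, against 242, 285 and 306 CPM in controls (log2 fold change -0.88 ± 0.11, adjusted p = 0.00841). The adaptor Irs2 had 169, 154 and 109 CPM in KO-labelled islets, against 205, 253 and 248 CPM in controls (-0.71 ± 0.16, adjusted p = 0.0355), and Irs1 fell to 4.03 ± 0.979 CPM, against 7.44 ± 0.889 CPM in controls (-0.88 ± 0.22, adjusted p = 0.0448). Shc1, an adaptor that links receptors to Ras, also fell (-0.41 ± 0.11, adjusted p = 0.0474). Insrr passed with each library left out in turn (adjusted p up to 0.0495), but not with the acinar covariate. With upper-quartile factors Irs1 (0.0501) and Shc1 (0.0562) missed the threshold, which left 2 that fell, Shc1 also missed it with a replicate block (0.0640), and DESeq2 called 4 that fell and 2 that rose. Irs1 missed the threshold without each library in turn (0.0549 to 0.148), and Irs2 (0.0565 to 0.118) and Shc1 (0.0619 to 0.148) without each except control replicate 1.

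Igf1r, the receptor for both ligands, sat at the threshold. It had 48.1, 36.9 and 44.6 CPM in KO-labelled islets, against 27.5, 35.3 and 26.0 CPM in controls. Igf1r did not overlap between groups (36.9 against 35.3 CPM at the closest), which held for 32.1% of all tested genes. Its log2 fold change was 0.55 ± 0.14 (95% interval 0.23 to 0.86) at an adjusted p of 0.050004, which is not a call, and it was called with RLE factors (0.0496), upper-quartile factors (0.0436) and DESeq2 (0.0104), but not with a replicate block (0.0760), and with single libraries left out its adjusted p was 0.0423 to 0.153. Igf2r, which clears IGF2 (0.01 ± 0.16, adjusted p = 0.976), and the insulin receptor Insr (0.08 ± 0.18, adjusted p = 0.823) were not called, and their signs turned under some alternatives.

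Among genes that release or capture IGFs, 1 of 5 tested rose and 0 fell, beside 4.14% of all tested genes that rose. The median log2 fold change of the 5 was -0.12, beside 0.01 over all tested genes. Htra1, a secreted serine protease that can cut IGF-binding proteins, had 5.63, 7.10 and 5.33 CPM in KO-labelled islets, against 2.68, 3.13 and 2.81 CPM in controls (1.07 ± 0.21, adjusted p = 0.0258). It missed the threshold without KO replicates 1 (0.0756) or 2 (0.0563) and without control replicates 2 (0.0778) or 3 (0.0760). Igfals, the subunit that joins IGF and Igfbp3 in a large serum complex, had 39.5, 38.9 and 38.1 CPM in KO-labelled islets, against 43.3, 48.1 and 53.8 CPM in controls, a log2 fold change of -0.32 ± 0.10 that was not called (adjusted p = 0.0883). Pappa, the protease of Igfbp4, had at most 6 counts in any library and was not tested.

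**Figure D4:**
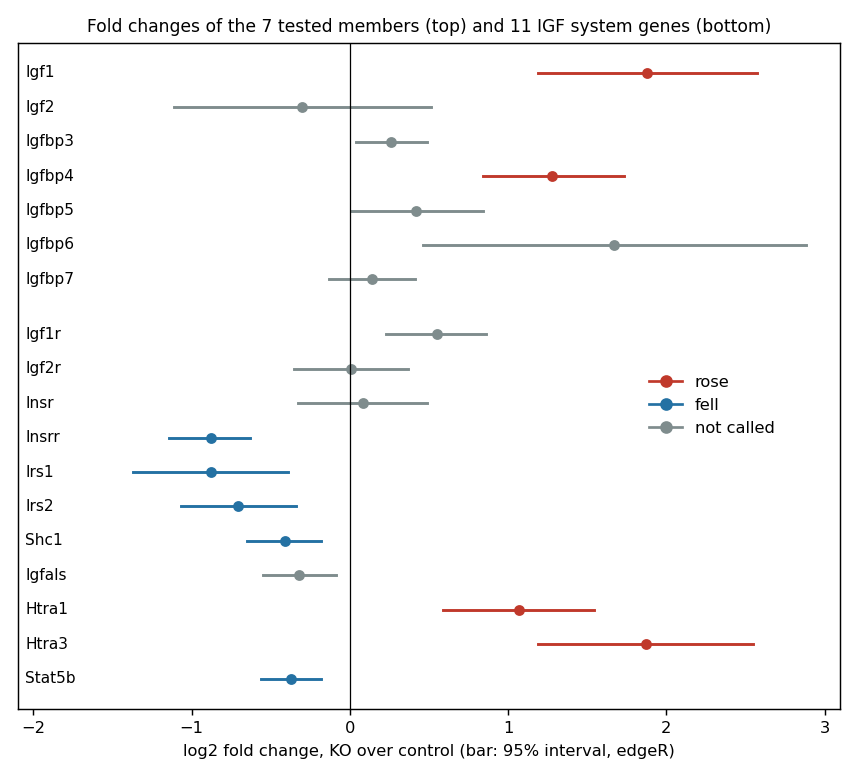
Points are log2 fold changes of KO-labelled over control islets and bars their 95% intervals from edgeR, for the 7 tested members (top) and 11 other genes of the IGF system (bottom), coloured by call. Igf1, Igfbp4, Htra1 and Htra3 rose, Insrr, Irs1, Irs2, Shc1 and Stat5b fell, and the other 9 were not called.

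Over all tested genes 4.14% rose. Of 10 tested other proteins that carry an IGFBP domain, 2 rose, 0 fell and 8 were not called. Their median log2 fold change was 0.74, beside 0.01 over all tested genes, and it was 0.42 without control replicate 1, 0.48 without KO replicate 2 and 0.29 with the fibroblast covariate. Beside Htra1, which stands in both lists, the protease Htra3 had 9.06, 7.61 and 5.94 CPM in KO-labelled islets, against 1.16, 2.33 and 2.65 CPM in controls (1.87 ± 0.30, adjusted p = 0.0156). Htra3 missed the threshold without KO replicate 1 (0.0641) or control replicate 2 (0.0565). In the growth hormone axis, the main inducer of Igf1 in liver, 1 of 6 fell, beside 2.63% of all tested genes. In this list 0 rose and the median was -0.31. Stat5b, the transcription factor that carries the growth hormone signal, had 50.7, 53.4 and 51.6 CPM in KO-labelled islets, against 65.2, 68.8 and 67.2 CPM in controls (-0.37 ± 0.09, adjusted p = 0.0360), and it missed the threshold with a replicate block (0.0637) and without each library except control replicate 1 (0.0549 to 0.116). With either marker covariate Irs1, Irs2, Shc1, Htra1, Htra3 and Stat5b all missed the threshold.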

How the data were processed

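The authors deposited raw counts per gene with exon coordinates and summed exon length, per the file headers. The submitters' processing notes list mm10, edgeR, Subread 1.5.0 with featureCounts, and STAR 2.4.2a; annotation, strand and multi-mapping settings were not given in the sources used here. Per the labels' protocols, 10 ng of RNA per sample was copied with poly-dT priming and SMART-Seq v4, a low-input amplification that adds noise to rare transcripts and is not described as stranded, so overlapping and antisense genes cannot be separated. The deposited gene length, in another unit (bp), was used for RPKM.

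Counts were tested in edgeR 4.0.16 (R 4.3.3) with TMM factors, the default filter by group and group as the only term, over 13736 genes, at an adjusted p of 0.05. Standard errors derive from the fold change and the F value. Overlaps came from GenomicRanges 1.54.1, ignoring strand. The pipeline was tested on simulated data. The members, the gene lists, 12 marker lists and the alternatives were chosen with earlier results of these data known. Named genes were all members, Dhps, up to 4 called genes of each of 5 lists, 5 fixed genes (Igf1r, Igf2r, Insr, Igfals, Igfbp1) and the 2 nearest profiles of each tested member with mean log2 CPM of at least 2, passing over predicted genes. Others, such as Msln, Wdr83 and Pappa, were named after their values were seen. Limits of 3 counts cover counting error only. Library pairs within a group differed beyond counting noise (chi-square per degree of freedom of 10.8 or more). Alternatives were RLE and upper-quartile factors, other filters, DESeq2 1.42.0, limma-voom 3.58.1, a replicate block, library sizes without acinar and hormone genes, single libraries left out and marker covariates.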

Additional observations from a re-analysis of the deposited data

How the results depend on the processing

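Of 111 alternative values for the 7 tested members, 102 kept their sign and their side of the threshold. Igf1 and Igfbp4 stayed called under each alternative except without KO replicate 1 and with either marker covariate. The acinar covariate gave 1.24 for Igf1 and 1.64 for Igfbp4, and the fibroblast covariate 2.26 and 0.84. Leaving out single libraries gave 1.61 to 2.10 for Igf1, 1.06 to 1.43 for Igfbp4 and 1.29 to 2.06 for Igfbp6. With the fibroblast covariate Igfbp5 (-0.04) and Igfbp7 (-0.01) changed sign, with no call before or after. The number of members called was 2, or 0 to 3 over left-out libraries and 0 with the acinar or fibroblast covariate. The total of 929 genes was 1413 without a filter, 1658 in DESeq2, 0 with the acinar covariate (1433 at an unadjusted p under 0.05), 139 with the fibroblast covariate and 60 to 1028 over left-out libraries.

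Calls among receptors and adaptors numbered 4, or 0 with the acinar covariate, 1 with the fibroblast covariate and 1 to 4 over left-out libraries. Those for release and capture were 1, or 0 with either covariate and 0 to 1 over left-out libraries. For IGFBP-domain proteins they were 2, or 4 without a filter, 0 with either covariate and 0 to 3 over left-out libraries. For the growth hormone axis they were 1, or 2 in DESeq2, 0 with the replicate block or either covariate and 0 to 1 over left-out libraries. Igf2r turned to -0.01 without a filter and -0.30 with the fibroblast covariate (-0.14 to 0.13 over left-out libraries), and Insr to -0.23 with the acinar covariate (-0.06 to 0.21). The cause of these shifts was not tested.

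Replicate numbers gave no sign of pairing: deviations of same-numbered libraries correlated at -0.04, -0.01 and 0.05, and those of other pairs at -0.12 to 0.13. With 3 libraries in a group this cannot exclude pairing. With a replicate block 826 genes were called, 2 of them members, and Shc1 missed the threshold (-0.41, adjusted p = 0.0640). Under the scalings tried the median of all genes moved by at most 0.03 on the log2 scale. Igfbp2 could not be tested at this depth under the main filter, and low counts of Igf1, Igf2 and Igfbp6 limit their precision.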

Other observations

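Transcripts of the binding proteins exceeded those of the ligands in every library, and protein was not measured. Most of this RNA was Igfbp7, whose product binds IGFs weakly and which made up 73.2% to 82% of the summed RPKM of the 8 members. The 6 binders summed to 164, 197 and 221 RPKM per RPKM of Igf1 and Igf2 together in KO-labelled islets, and to 284, 219 and 327 in controls, so the groups overlapped only through KO replicate 3 and control replicate 2. As a percentage of the summed CPM of the endothelial markers, Igfbp7 stood at 36.6%, 40.1% and 39.4% in KO-labelled islets and 45.4%, 45.4% and 41.0% in controls. As a percentage of the summed fibroblast markers, Igfbp4 stood at 6.72%, 6.64% and 9.63% in KO-labelled islets and 9.93%, 8.10% and 4.51% in controls, and Igf1 at 1.64%, 1.70% and 1.48% in KO-labelled islets and 2.39%, 1.31% and 0.326% in controls. These values were given no test.

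Other genes tied to Igf2 by name or position were at low levels, apart from Ins2. H19, the maternally expressed noncoding RNA beside Igf2, had 0, 0 and 2 counts in KO-labelled islets and 0, 1 and 0 counts in controls. Of the RNA-binding proteins named for Igf2 mRNA, only Igf2bp2 passed the filter, at 3.78 ± 0.655 CPM in KO-labelled and 3.69 ± 0.204 CPM in control islets (SD, n = 3 each), and it was not called (log2 fold change 0.04 ± 0.23, adjusted p = 0.941 in edgeR). The protease Pappa2, which cuts Igfbp3 and Igfbp5, was among the more abundant genes of the IGF system, at 215, 298 and 434 CPM in KO-labelled islets and 327, 171 and 237 CPM in controls, with no call (0.37 ± 0.27, adjusted p = 0.423). The endothelial proteoglycan Esm1 (-0.22 ± 0.16, adjusted p = 0.421) was the only tested IGFBP-domain gene outside the members with a negative log2 fold change.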
